A study of Rattus norvegicus with 6 samples.

Results

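The transcription factors Nkx2-1, Foxe1, Pax8 and Hhex define the lineage of the thyroid follicular cell, the cell that makes thyroid hormone. They were taken by gene symbol from the read counts of the maternal thyroid in rats, and all 4 were among the 15388 genes of the tables. RNA was compared between adult non-pregnant Sprague-Dawley rats (NP, 3 samples) and rats in late pregnancy (LP, 3 samples), the latter on day 18 when the morning of the vaginal plug is taken as the first day. No other treatment or genetic change is given for either group. The samples were pieces of whole thyroid, so each value is a sum over all cells that the tissue held.

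Nkx2-1 is a homeodomain protein, Pax8 a paired domain protein, Foxe1 a forkhead protein and Hhex a homeodomain protein that often acts as a repressor. They are found together in the thyroid bud of the embryo and stay on in the adult follicular cell, where Nkx2-1, Pax8 and Foxe1 bind the promoters or enhancers of thyroglobulin (Tg) and the sodium/iodide symporter (Slc5a5) in various combinations. None of them is restricted to this cell. Nkx2-1 is also made by C cells and by the epithelium of lung and airway, Pax8 by kidney, and Hhex by endothelium, liver and blood cells.

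Nkx2-1 rose by 21.0% and Hhex fell by 16.7% in LP, while Foxe1 and Pax8 did not pass the test. The groups were tested against each other with the quasi-likelihood method of edgeR and TMM normalization, which scales libraries so that most genes keep their level. All 6 samples entered the fit, and p-values were adjusted by Benjamini-Hochberg over the 11738 genes tested. Thus 1 of the 4 factors rose and 1 fell at an adjusted p below 0.05, which 27.0% of all genes tested passed (15.3% higher and 11.7% lower in LP). No factor met the study's stricter criteria of a fold change above 2 with an adjusted p below 0.05, which 5.44% of all genes met. The CPM of NP and LP samples did not overlap for 2 of the 4 factors and for 40.1% of all genes. With only 4 genes, neither share is a result about the group. Scaled by library totals alone, 40.4% of the genes called over the whole table were higher in LP, against 56.6% with TMM.

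The depth was between 2752144 and 3449857 counted reads per sample, of which Tg took 22.9% to 24.5%, and a floor of 3 reads in a library came to between 0.87 and 1.09 counts for each 1000000 reads (CPM). Counts of replicates 2 and 3 agreed within sampling noise in both groups (chi-square per degree of freedom of 1.02 in NP, p = 0.111, and 0.995 in LP, p = 0.667). Replicate 1 stood apart from them in both groups, with values of 3.70 to 4.11, so replicates 2 and 3 were counted as 1 sample and n = 2 in every mean ± SD. The edgeR fit still took all 6 samples as separate, so its p-values and standard errors may be too small. With replicates 2 and 3 summed, 20.6% of 12326 genes tested passed at an adjusted p below 0.05 from edgeR. Thyroids were taken from 3 rats in each group, but nothing in the labels ties a sample to 1 animal, and the p-values then measure only the spread between these samples, which may be technical. Follicular genes were high in all samples, but the tissue held other cells as well. The 18 follicular function genes of the list used here summed to between 231650 and 250030 CPM in NP and between 241850 and 258200 CPM in LP. The 4 parathyroid markers summed to between 4503 and 4879 CPM in NP and between 3765 and 4090 CPM in LP, and parathyroid hormone (Pth) fell from 4310 ± 237 CPM (SD, n = 2) to 3499 ± 188 CPM, while the calcium receptor Casr, at 265 ± 1.0 and 288 ± 21 CPM, did not pass the test. Of the 4, 1 rose and 1 fell, where 15.3% of all genes tested rose and 11.7% fell. Their median log2 fold change was 0.14, and Pth made up most of the sum in every sample. Of 5 B cell markers 4 were in the tables and none passed the filter on low counts, with sums of 1.64 to 3.93 CPM in NP and 1.60 to 2.37 CPM in LP, most of it from Cd22. The 14 skeletal muscle markers in the tables were between 22.9 and 81.6 CPM in NP and between 4048 and 4301 CPM in LP, with Tnnc2 and Atp2a1 as the largest in LP.

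The promoters of the factors that differed between the groups are shown for the sequence around their starts. Each is the 250 bases before the transcript start that RefSeq uses on the rat build GRCr8, a later build than the rn5 used for the counts, and reads 5′ to 3′ on the strand of the gene. Capitals mark CTCAAG, which holds the CAAG core bound by Nkx2-1, and CAATTAA, a homeodomain sequence of the kind Hhex binds, both searched on both strands. The Nkx2-1 window is chr6:79734868-79735117 on the minus strand, inside the span of the gene because longer transcripts start further upstream, and the Hhex window is chr1:244602695-244602944 on the plus strand.
Nkx2-1: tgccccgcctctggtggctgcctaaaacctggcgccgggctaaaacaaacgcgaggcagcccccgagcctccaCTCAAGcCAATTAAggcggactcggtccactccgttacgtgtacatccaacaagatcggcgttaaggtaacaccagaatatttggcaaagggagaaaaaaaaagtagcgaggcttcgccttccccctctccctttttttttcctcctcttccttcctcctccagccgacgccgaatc
Hhex: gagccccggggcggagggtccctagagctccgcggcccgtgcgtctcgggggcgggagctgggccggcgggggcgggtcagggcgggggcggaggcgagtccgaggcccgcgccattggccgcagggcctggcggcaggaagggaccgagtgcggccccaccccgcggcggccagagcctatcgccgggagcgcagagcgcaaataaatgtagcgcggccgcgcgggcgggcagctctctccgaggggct
The Nkx2-1 window held both motifs on its forward strand, with the first base of CTCAAG 177 bases and that of CAATTAA 170 bases before the start, so that they lay close together without overlap. Of 33469 RefSeq promoter windows of the same length, 13.3% held CTCAAG, 2.37% held CAATTAA and 0.308% held both. The Hhex window held neither, and 78.4% of its bases were G or C against 55.2% in the Nkx2-1 window. The Pax8 window, with 60.8% G or C, held neither as well. None of these 3 windows held TAAACA, a forkhead sequence of the kind Foxe1 binds, which was in 12.1% of all windows. The motifs were chosen with these sequences in view, a match is not a measured binding site, and no binding was measured in these samples.

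For Nkx2-1 (ENSRNOT00000011453), 664, 743 and 714 reads were counted in NP, and 965, 904 and 975 were counted in LP. Scaled, these were 237, 243 and 234 CPM in NP against 308, 268 and 289 CPM in LP. Every LP sample was above every NP sample, which was so for 21.1% of all genes tested, and the LP samples were more spread than the NP samples. The means were 238 ± 1.2 CPM (SD, n = 2) and 293 ± 21 CPM, and the log2 fold change was 0.28 (standard error 0.060, 95% interval 0.15 to 0.40, adjusted p = 0.00208 from edgeR's quasi-likelihood test). With replicates 2 and 3 summed into 1 sample, the log2 fold change was 0.30 (adjusted p = 0.0170 from edgeR). The rise was 0.38 on the log2 scale between the samples numbered 1 and 0.22 between the sums of replicates 2 and 3. A change of this size or larger in either direction was found in 37.3% of all genes tested, so the rise of Nkx2-1 was of common size in these data. In RefSeq a long non-coding RNA gene, LOC102552092, overlaps Nkx2-1, and reads of both cannot be told apart where the library does not keep the strand.

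Markers of the other cells that make Nkx2-1 were examined beside it. Of 11 markers of airway and lung epithelium, 8 were in the tables and 5 passed the filter on low counts. Of these 5, 3 rose, all secretory proteins (Scgb3a1, Bpifa1 and Scgb1a1), where 15.3% of all genes tested rose. They had at most 4, 6 and 8 reads in an NP sample, so they passed the filter only through LP. A fall could hardly be called for them, and their rise is no test of the list. The summed level of the 8 was between 80.1 and 86.1 CPM in NP and between 92.8 and 102 CPM in LP, most of it from the surfactant protein Sftpd, which was at 69.4 ± 3.4 CPM (SD, n = 2) and 63.3 ± 2.6 CPM. The surfactant protein Sftpb had at most 2 reads in a sample. Of the 11 C cell markers 1 rose and 2 fell, where 15.3% of all genes tested rose and 11.7% fell. Their sum was between 14888 and 15898 CPM in NP and between 13178 and 14003 CPM in LP. Calcitonin (Calca) fell by 0.32 on the log2 scale (adjusted p = 3.34e-08 from edgeR, and 4.09e-05 with replicates 2 and 3 summed). The granule protein chromogranin A (Chga) had a log2 fold change of -0.01 (adjusted p = 0.836 from edgeR). The part of these cells in the rise of Nkx2-1 was not tested.

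The reads on Hhex (ENSRNOT00000022384) numbered 966, 1033 and 1045 for the NP group but 905, 957 and 952 for the LP group, which is 345, 338 and 343 CPM against 289, 284 and 283 CPM. Every LP sample was below every NP sample, as for 19.0% of all genes tested. The means were 343 ± 3.1 CPM (SD, n = 2) and 286 ± 4.1 CPM. The samples of a group differed by less than reads counted at random would, with a coefficient of variation of 1.01% in NP and 1.18% in LP against a counting error of 3.09% to 3.32%. The log2 fold change was -0.26 (standard error 0.050, 95% interval -0.37 to -0.16, adjusted p = 0.000676 from edgeR), and -0.26 with replicates 2 and 3 summed (adjusted p = 0.0169). It was -0.26 between the samples numbered 1 and -0.27 between the sums of replicates 2 and 3, and 39.0% of all genes changed by as much or more.

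Most endothelial and epithelial markers were also lower in LP. Of 9 endothelial markers 8 were in the tables and all 8 were tested. Of these 6 fell and none rose, where 11.7% of all genes tested fell. Cdh5 and Vwf, at 0.01 and 0.15 on the log2 scale, did not pass the test. The median log2 fold change of the 8 was -0.38 where the median of all genes was -0.01. Their summed level was between 748 and 772 CPM in NP and between 608 and 623 CPM in LP, and no marker was at 0. The VEGF receptors Flt1 and Kdr fell by 0.45 and 0.31 on the log2 scale. Of the 7 epithelial markers 5 fell and none rose, with a median of -0.20. Their sum was between 1970 and 2030 CPM in NP and between 1663 and 1721 CPM in LP. Krt7, at 0.02, did not pass the test. Epcam and Cldn3, an adhesion molecule and a tight junction protein, each fell by 0.20. The part of these cells in the fall of Hhex was not tested. In whole tissue, fewer cells of a type and less RNA per cell cannot be told apart.

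**Figure D1:**
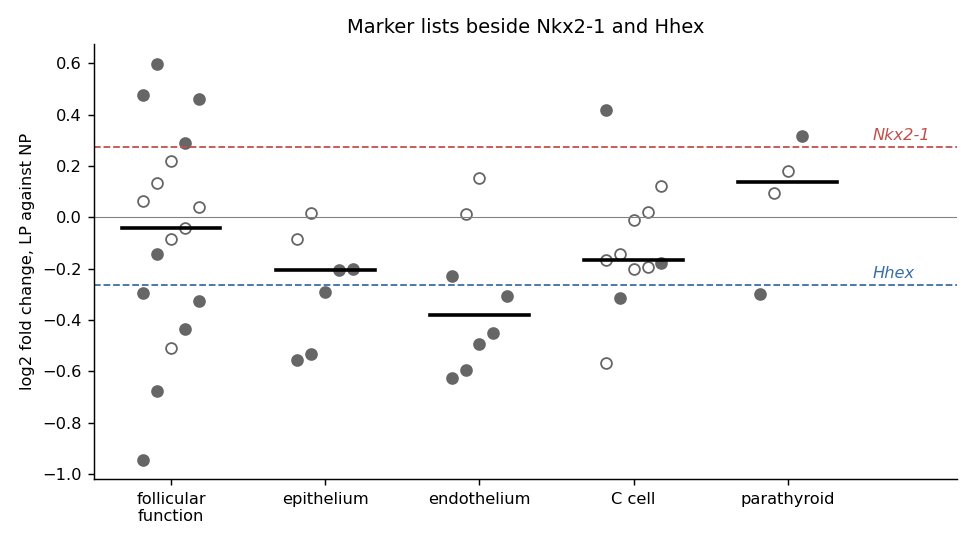
Log2 fold change of LP against NP for each tested gene of 5 marker lists (points, filled where the adjusted p was below 0.05), with the list median as a black bar and the TMM values of Nkx2-1 and Hhex as dashed lines. The median was -0.04 for follicular function genes, -0.20 for epithelium, -0.38 for endothelium, -0.17 for C cells and 0.14 for parathyroid.

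The difference of Hhex depended on what it was measured against. When the libraries were scaled to the summed epithelial markers, its log2 fold change was -0.02 (adjusted p = 0.754 from edgeR), and when they were scaled to the summed endothelial markers it was 0.05 (adjusted p = 0.472). These scalings moved the median of all genes to 0.23 and 0.30. A scaling shifts all genes by nearly the same amount, so relative to the median Hhex stayed at -0.25 by construction. That agreement with TMM is no further test. Nkx2-1 was higher in LP under the same scalings, by 0.52 and 0.59 on the log2 scale. The endothelial scaling was chosen after the data were seen.

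Counts of Foxe1 (ENSRNOT00000012637) were 1502, 1485 and 1559 reads for NP against 1645, 1607 and 1614 reads for LP, which is 537, 486 and 512 CPM against 525, 477 and 479 CPM. The groups overlapped. The means were 518 ± 26 CPM (SD, n = 2) and 502 ± 33 CPM, and the log2 fold change was -0.05 (adjusted p = 0.538 by edgeR) with a 95% interval from -10.9% to 4.42% of the NP level. Replicate 1 had the highest value in both groups.

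Pax8 (ENSRNOT00000031058) was covered by 1342, 1397 and 1454 reads under NP, with 1460, 1531 and 1466 reads under LP, which is 479, 458 and 477 CPM against 466, 454 and 435 CPM. The groups overlapped here too. The means were 474 ± 8.4 CPM (SD, n = 2) and 455 ± 15 CPM, and the log2 fold change was -0.06 (adjusted p = 0.400 by edgeR) with a 95% interval from -10.8% to 2.95%. The sign of both factors was negative with TMM and with library totals alone, where Pax8 passed the test at -0.13 (adjusted p = 0.0381), and positive when the libraries were scaled to follicular, epithelial or endothelial genes, where both passed the test under the epithelial (0.19 and 0.18) and endothelial (0.26 and 0.25) scalings. The median of all genes was then 0.23 and 0.30. Relative to it Foxe1 was at -0.04 and Pax8 at -0.05 under both, as with TMM, because a scaling shifts all genes nearly alike. In RefSeq a long non-coding RNA gene, LOC134486348, overlaps Pax8.

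**Figure D2:**
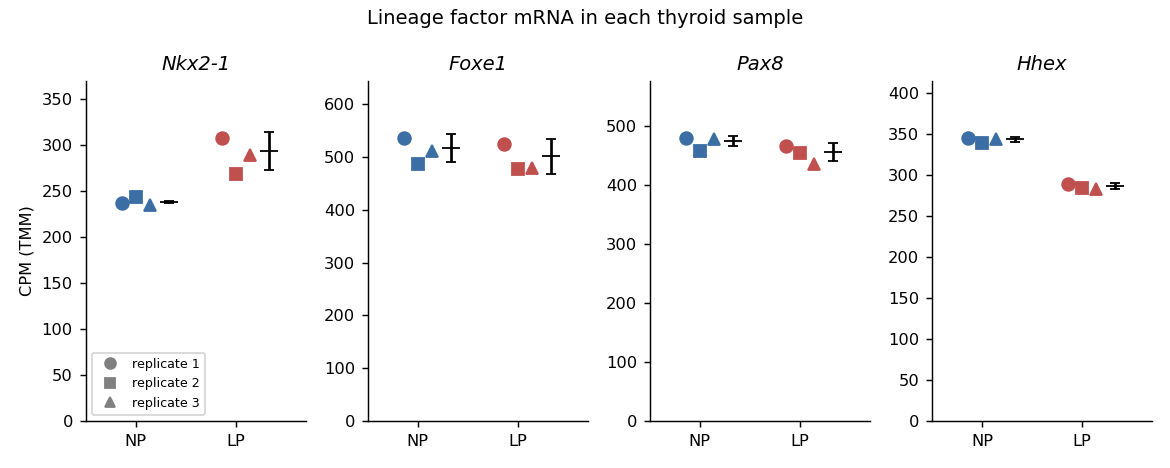
CPM with TMM normalization of each lineage factor (vertical axes from 0) in each sample, with a symbol for each replicate number and, beside them, the mean ± SD with replicates 2 and 3 counted as 1 sample (n = 2). Nkx2-1 lies between 234 and 243 CPM in NP and between 268 and 308 CPM in LP. Hhex lies lower in every LP sample, and Foxe1 and Pax8 overlap. Scaled to endothelial genes, a choice made after the data were seen, Hhex did not pass (log2 fold change 0.05, adjusted p = 0.472 from edgeR). That scaling moved the median of all genes to 0.30.

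The ratio of 2 factors within a sample does not depend on how libraries are scaled, so the 6 pairs of factors were compared in this way. The values are ratios of reads, not corrected for gene length, so only their change between groups has a meaning. Nkx2-1 had 0.687, 0.719 and 0.683 reads for each read of Hhex in NP, and 1.07, 0.945 and 1.02 in LP. This ratio was 1.45-fold higher in LP, the largest shift of the 6 pairs, with no overlap of the groups. Against Foxe1 and Pax8, the ratio of Nkx2-1 was 1.25-fold and 1.26-fold higher in LP. Foxe1 and Pax8 were 1.16-fold and 1.15-fold higher relative to Hhex. In these 5 pairs every LP sample was above every NP sample. Each gave p = 0.1 in an exact two-sided permutation test, the smallest value that 3 samples against 3 allow (adjusted p = 0.12 over the 6 pairs). All 5 hold Nkx2-1 or Hhex, so they repeat the shifts of these 2 genes and are not separate results. Among single genes tested 40.1% did not overlap, and the share over other pairs of genes was not computed. With replicates 2 and 3 taken as 1 sample the smallest exact value is 0.333, so the design cannot reach the threshold. The ratio of Foxe1 to Pax8 was 1.12, 1.06 and 1.07 in NP and 1.13, 1.05 and 1.10 in LP (exact permutation p = 0.9), a log2 difference of 0.01.

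**Figure D3:**
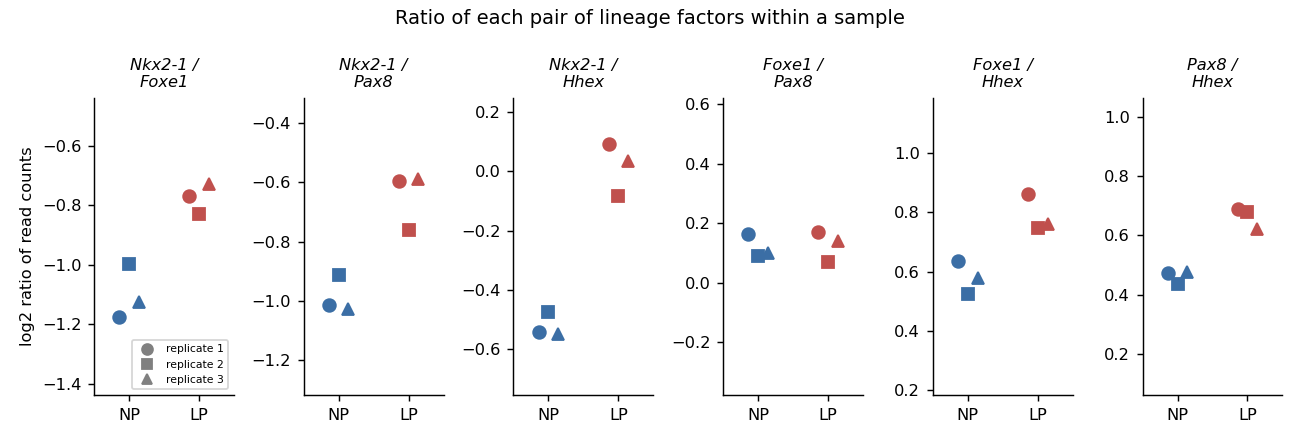
Log2 ratio of the read counts of each pair of lineage factors in each sample (vertical axes span 1 log2 unit in each panel, symbols give the replicate number). In 5 pairs, all with Nkx2-1 or Hhex, the LP samples lie above the NP samples. The difference is 0.54 on the log2 scale for Nkx2-1 against Hhex, and Foxe1 against Pax8 overlaps.

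The factors were next set against the genes they are known to control. For each 1000 reads on the follicular function genes without Tg, Nkx2-1 had 26.0, 28.5 and 27.2 reads in the NP group, which compares with 36.0, 33.5 and 35.9 in the LP group. On this measure Hhex was at 37.8, 39.6 and 39.9 under NP and at 33.8, 35.4 and 35.1 under LP. The groups did not overlap for either, with log2 differences of 0.37 and -0.17 (exact permutation p = 0.1 for each, adjusted p = 0.133 over the 4 factors). With Tg among the follicular genes these differences were 0.22 and -0.32. Foxe1 went from 58.4 ± 0.40 (SD, n = 2) to 60.4 ± 1.3 reads (exact permutation p = 0.1, adjusted p = 0.133). Its groups did not overlap either, though the highest NP value was 59.45 and the lowest LP value 59.46. Pax8 went from 53.5 ± 1.4 to 54.9 ± 0.64 (exact permutation p = 0.4), and its groups overlapped. The share of all genes without overlap on this measure was not computed.

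The follicular function genes moved in both directions. Of the 18, 17 passed the filter, and 4 rose, 6 fell and 7 did not pass the test. Among all genes tested 15.3% rose and 11.7% fell. The median log2 fold change was -0.04 against -0.01 for all genes. Slc5a5, the symporter that brings iodide into the cell, fell from 342 ± 5.1 CPM (SD, n = 2) to 179 ± 2.6 CPM, by 0.94 on the log2 scale, and the TSH receptor Tshr fell by 0.68. The deiodinase Dio1 and the anion transporter Slc26a7 fell by 0.43 and 0.32. Among the rising genes were the dual oxidase maturation factor Duoxa2 at 0.48, the kidney and thyroid cadherin Cdh16 at 0.46 and the dual oxidase Duox2 at 0.29. Tg, the protein on which the hormone is made, had a log2 fold change of 0.06 (adjusted p = 0.0594 from edgeR). No tested gene of the list changed by more than 2-fold.

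Among 12 proteins known to act with the factors, all of which were tested, 3 rose and 2 fell, with a median log2 fold change of 0.13, where 15.3% of all genes tested rose and 11.7% fell. Nfic and Nfix, transcription factors of the nuclear factor I family, rose by 0.78 and 0.72 on the log2 scale. The reads on Nfic went from 236, 256 and 243 to 453, 476 and 467. Their relative Nfia, with a log2 fold change of 0.03, did not pass the test (adjusted p = 0.850 from edgeR). Smad3, the signal carrier of TGF-beta that binds Pax8 and Nkx2-1, rose by 0.54, from 62.1 ± 1.1 CPM (SD, n = 2) to 89.7 ± 0.026 CPM. Kcnip3, a calcium sensor also known as DREAM, fell by 0.34, with 514, 498 and 494 reads in NP against 428, 437 and 454 in LP. Calr, a calcium-binding chaperone of the endoplasmic reticulum, fell by 0.35. The redox factor Apex1 had a log2 fold change of -0.06 (adjusted p = 0.790).

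Of 22 other transcription factors of the pharyngeal endoderm and the thyroid bud, 18 were in the tables and 12 passed the filter. Of these 3 rose and none fell, with a median log2 fold change of 0.07. The share called is near the 27.0% of all genes tested. Tbx1, a T-box factor of the pharyngeal apparatus, went from 31, 31 and 23 reads to 133, 115 and 138 reads, a 4.08-fold rise (log2 fold change 2.03, standard error 0.16, adjusted p = 2.21e-08 from edgeR). Sox9, a factor of many epithelia and of cartilage, rose by 0.33 on the log2 scale. Hes1, a target of Notch, had a log2 fold change of -0.14 (adjusted p = 0.150), and Sox17 of -0.40 (adjusted p = 0.171). Sox17 went from 65, 83 and 113 reads to 45, 78 and 97, lower for each replicate number, and it passed the test with the replicate number as a block. Tbx1 and Nfix are also known from skeletal muscle, whose markers rose with them (9 of the 11 tested, and none fell). Of all genes tested 15.3% rose. Of the markers that rose, Myh1, Myl1, Tnnt3, Tnni2, Ryr1 and Eno3 had at most 8 reads in an NP sample. They passed the filter only through LP, so a fall could hardly be called for them. Their rise is no test of the list. Acta1 and Pygm did not pass the test and had 0 reads in replicate 1 of both groups. Of the 14 markers in the tables, Myh1, Mylpf and Myod1 were at 0 in NP. The part of muscle in these values was not tested. With TMM computed without the muscle markers, Nkx2-1 and Hhex had the same log2 fold changes of 0.28 and -0.26. The markers are few among the 11738 genes tested, so leaving them out could hardly move TMM. The median of all genes was -0.0088 without them and -0.0091 with them, so this is no test of muscle.

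**Figure D4:**
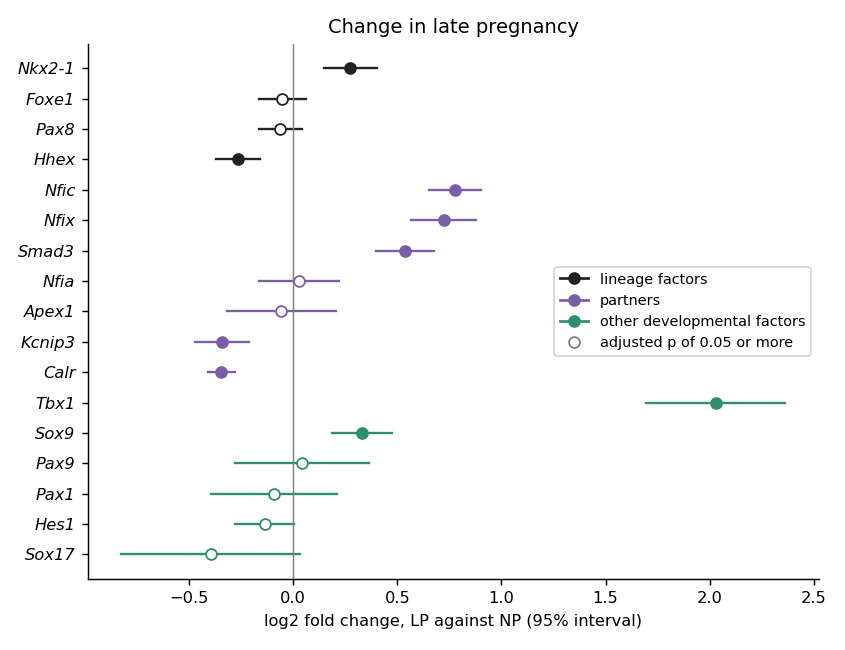
Log2 fold change of LP against NP with its 95% interval for the lineage factors and the genes reported here from the tested partners and other developmental factors (filled points have an adjusted p below 0.05). With TMM, Nkx2-1 at 0.28 and Hhex at -0.26 are smaller changes than those of Nfic at 0.78 and Tbx1 at 2.03. Scaled to endothelial genes, a choice made after the data were seen that moves the median of all genes to 0.30, Hhex is at 0.05 and does not pass.

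Of 15 other members of the Nkx2, Pax and Foxe families, 7 were in the tables and 2 passed the filter, Pax1 and Pax9, which are known from the pharyngeal pouches. Pax1 had 69 to 76 reads in NP and 70 to 88 in LP, and Pax9 had 48 to 73 and 60 to 82. Neither passed the test, with log2 fold changes of -0.09 and 0.04. The other 5, Nkx2-2, Nkx2-3, Pax2, Pax4 and Pax7, had at most 14 reads in a sample. No relative of the lineage factors in these tables thus came near their counts.

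The genes whose levels ran most like each factor over the 6 samples were also listed, by Pearson correlation of log2 CPM. For Hhex these were Irs2, a substrate of the insulin receptor, the phosphate transporter Slc20a1 and the disulfide isomerase Pdia5, with r = 0.999 for each, and 503 genes had an r above 0.95. For Nkx2-1 they were Tab2, Hrasls and Mrpl51, with r between 0.992 and 0.994, and 154 genes had an r above 0.95. For Foxe1 they were Bcam, Alox12e and Mrps12 (r between 0.972 and 0.978), and for Pax8 Itm2c, Dpm1 and Btbd9 (r = 0.990 for each). These values describe 6 points that share the split between NP and LP and the split between replicate 1 and the others, so such high values are common.

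The members were last compared across all ways of fitting or scaling that were run. Nkx2-1 was higher in LP and passed the test in all 18 alternatives, with log2 fold changes between 0.20 and 0.59. Apart from the scalings to marker lists the highest was 0.32. The alternatives refit the same samples or some of them, so they are not separate support. Hhex was lower in 17 and passed in 16, without passing when scaled to epithelial or endothelial genes. Foxe1 was lower in 15, none of which passed, and Pax8 was lower in 15, of which 1 (library totals alone) passed. The other 3 were the scalings to marker lists, which moved all genes upward by nearly the same amount. By construction Foxe1 stood 0.04 and Pax8 0.05 below the median of all genes there, as they did with TMM.

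**Figure D5:**
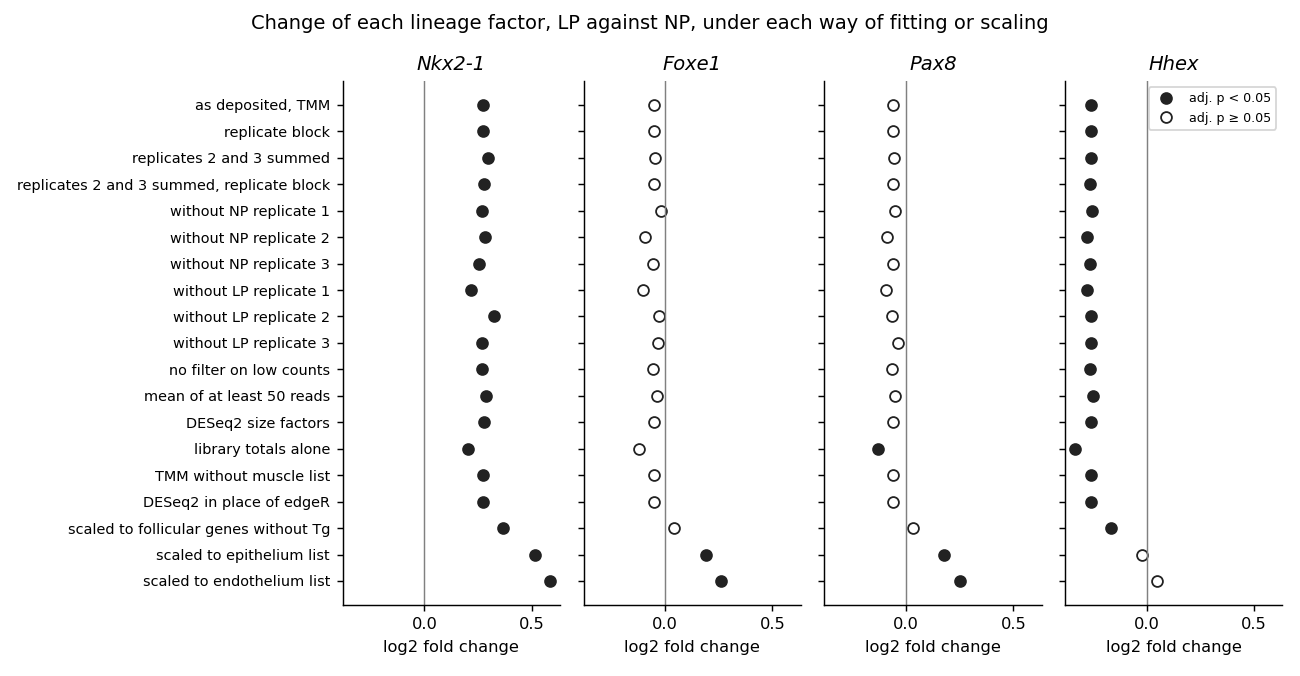
Log2 fold change of LP against NP of each lineage factor (horizontal axes) under the fit on the samples as deposited and 18 alternatives (rows), with filled points where the adjusted p was below 0.05. All 4 factors shift to the right together when libraries are scaled to follicular, epithelial or endothelial genes, which move the median of all genes to 0.09, 0.23 and 0.30, and Nkx2-1 lies between 0.20 and 0.59 throughout.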

How the data were processed

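Thyroid RNA of 3 NP and 3 LP samples was sequenced as polyA-selected libraries of the TruSeq kit on an Illumina system. According to the study's methods and the submitters' processing notes, the authors mapped reads to rn5 with TopHat 1.4.0 and counted them on Ensembl gene models with HTSeq, and the deposited values are raw read counts per gene, without normalization. The strand setting is not given in the sources used here. Each table held 15388 genes, with 1 transcript identifier and 1 symbol each.

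Counts were analysed with edgeR 4.0.16 in R 4.3.3 (quasi-likelihood test, TMM, default filter on low counts, Benjamini-Hochberg adjustment). Standard errors came from the fold change and its F statistic. CPM values were scaled by library totals with TMM. Correlations used log2 CPM with a prior count of 2. The threshold was an adjusted p of 0.05, and the floor of 3 reads covers counting error only. Levels were not ordered between genes, because gene lengths were not used. The steps were tested on simulated counts.

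Samples with the same replicate number deviated together from their group means (correlations across genes of 0.494, 0.223 and 0.192 for numbers 1, 2 and 3), but replicates 2 and 3 did so when crossed as well (0.216 for both crossings). Every number passed the limit set for pairing, although the labels give it as a repeat only. Alternatives included a block for the replicate number, replicates 2 and 3 summed with and without that block, each sample left out, no filter or a mean of at least 50 reads, DESeq2 size factors, library totals, TMM without muscle markers, DESeq2 1.42.0, and scaling to marker lists. Members and lists were chosen with earlier results of these data known. Genes named are the members, Tg, Tshr and Slc5a5, up to 4 genes of smallest adjusted p in each direction and the 2 highest that did not pass in each list of partners, developmental factors, relatives and follicular genes, the 2 highest of a marker list, and the 3 most alike of each member. Scgb3a1, Bpifa1, Scgb1a1, Sftpb, Myh1, Mylpf and Myod1 and the relatives of low count were named after their values were seen. So were Cdh5, Vwf, Krt7, Myl1, Tnnt3, Tnni2, Ryr1, Eno3, Acta1 and Pygm. Some genes that this rule would name are not reported here.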

Additional observations from a re-analysis of the deposited data

How the results depend on the processing

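The rise of Nkx2-1 kept its direction and passed the test under every alternative, each a refit of the same samples or some of them. With each sample left out in turn its log2 fold change was between 0.22 and 0.32, and that of Hhex between -0.28 and -0.26. With a replicate block the values were 0.27 for Nkx2-1, -0.05 for Foxe1, -0.06 for Pax8 and -0.26 for Hhex, and the block changed no call of a factor. Scaled to follicular genes without Tg, Foxe1 and Pax8 turned to 0.043 and 0.033. Scaled to epithelial genes they turned to 0.19 and 0.18, and Hhex did not pass at -0.023. Scaled to endothelial genes, a choice made after the data were seen, they turned to 0.26 and 0.25, and Hhex to 0.048. These scalings moved the median of all genes to 0.09, 0.23 and 0.30. They shift all genes nearly alike, so by construction each factor kept its TMM value relative to the median to within 0.01. With library totals alone Pax8 passed at -0.13 and 2154 genes were lower in LP. DESeq2 called 703 genes lower in place of 1378. A mean of at least 50 reads tested fewer genes and left 286 higher and 29 lower genes past the criteria. In the developmental list 1 gene was lower with the block, also with replicates 2 and 3 summed (Sox17 in both), and 1 with library totals (Hes1). The log2 ratio of Foxe1 to Pax8 was between -0.013 and 0.038 with each sample left out, turning to -0.0046 without NP replicate 2 and -0.013 without LP replicate 1. With Tg among the follicular genes, Foxe1 and Pax8 were lower relative to them, at -0.11 and -0.12. The cause of the changes in the factors was not tested, and the scalings are no test of it. Depth limits the developmental list and the relatives, of which 6 and 5 were below the filter.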
